A study of Homo sapiens with 6 samples.

Results

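The Tribbles genes TRIB1, TRIB2 and TRIB3 were examined together with CEBPA and RFWD2, which encode a described target and a ubiquitin-ligase partner of the Tribbles proteins. These 5 genes, of the 33835 gene rows with counts, were picked by name from earlier results of the same 6 libraries, in which TRIB2 was among the largest rises, so their values in this contrast are given as a description, with no test. DU145, an established human prostate cancer line, was transduced with a short hairpin against E6AP, the HECT ubiquitin ligase encoded by UBE3A (shE6AP, 3 libraries), or with a wobble hairpin as control (wobble, 3 libraries). Both groups were grown with doxycycline at 0.2 µg/ml over 2.5 days, and total RNA was sequenced to look for transcripts that E6AP regulates. The labels do not give the hairpin sequences, or say whether each group is a pool or a clone of transduced cells or whether its libraries are separate cultures. P-values therefore measure only the spread between these libraries, which may be technical.

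Tribbles proteins are pseudokinases: they keep the fold of a kinase but have lost or nearly lost catalysis, and act as scaffolds. Through a tail motif they bind COP1, the RING ubiquitin ligase encoded by RFWD2 (now named COP1), and bring it substrates, of which the transcription factor C/EBPalpha, encoded by CEBPA, is the best described for TRIB1 and TRIB2. The family also binds MAP2K kinases and AKT; TRIB2 is known as a repressor of FOXO factors, and TRIB3 as a stress-induced target of ATF4 and CHOP that feeds back on them. In prostate cancer TRIB2 has been described with drug resistance and with loss of luminal identity.

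The libraries held between 21558506 and 30488217 reads on genes, and levels are given in CPM, the read count scaled to the TMM-adjusted size of the library. UBE3A was at 14.6 ± 0.376 CPM (SD, n = 3) in shE6AP and 55.8 ± 1.97 CPM (SD, n = 3) in wobble, which leaves 26.1% of the control level. Epithelial markers (KRT8, KRT18, KRT19, EPCAM and CDH1) summed to 1052 to 1088 CPM in shE6AP and to 918 to 948 CPM in wobble. Within that sum EPCAM, KRT18 and KRT8 rose by 1.04, 0.33 and 0.22 on the log2 scale, and CDH1 and KRT19 fell by 0.16 and 0.13. The CDH1 call ended without shE6AP library 1 (adjusted p = 0.134 in edgeR) or wobble library 2 (0.0805). Blood markers with a row (PTPRC, LYZ and CSF1R, 3 of 5) summed to 5.05 to 5.29 CPM in shE6AP and 3.06 to 4.76 CPM in wobble. Fibroblast and endothelial markers with a row (4 of 5, mostly COL1A1) summed to 17.4 to 18.8 CPM in shE6AP and 12.3 to 15.1 CPM in wobble. The part of these sums in the values below was not tested, and in such bulk RNA a change in the number of cells that express a gene and a change in RNA per cell cannot be told apart.

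TRIB2, the member with the largest difference, was close to silent in the control and clearly present in cells with the E6AP hairpin. The wobble libraries held 21, 27 and 16 TRIB2 reads, which is 0.694, 0.934 and 0.590 CPM. The shE6AP libraries held 481, 357 and 399 reads, which is 16.9, 16.7 and 16.6 CPM. All 3 shE6AP libraries lay far above all 3 wobble libraries. In proportion to their level, the shE6AP libraries differed less among themselves than the wobble libraries did. With 16 to 27 reads, counting error is also larger in proportion in wobble, and its part in this was not tested. The group means were 16.7 ± 0.114 CPM (SD, n = 3) in shE6AP and 0.739 ± 0.176 CPM (SD, n = 3) in wobble, a ratio of 22.6. The fitted log2 fold change was 4.49 (SE 0.123), the 35th highest of the 19433 genes tested, and 0.252% of tested genes had a larger absolute value.

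TRIB3, the stress-induced member, was higher in shE6AP. Its level was 127, 129 and 126 CPM in shE6AP libraries 1 to 3, and 68.9, 65.1 and 65.1 CPM in wobble libraries 1 to 3. The groups did not overlap, and the means were 128 ± 1.59 and 66.3 ± 2.17 CPM (SD, n = 3 each). The shE6AP mean was thus 1.92 times the wobble mean, with a log2 fold change of 0.94 (SE 0.0366).

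TRIB1, known from plasma lipid control and from myeloid cells, was the only Tribbles gene that was lower in shE6AP, under each scaling tried. It stood at 26.9, 30.4 and 29.1 CPM in shE6AP libraries 1 to 3, against 35.2, 38.2 and 36.7 CPM in wobble libraries 1 to 3. The highest shE6AP library lay below the lowest wobble library. The means were 28.8 ± 1.77 CPM (SD, n = 3) in shE6AP and 36.7 ± 1.5 CPM (SD, n = 3) in wobble, 78.4% of the control level, with a log2 fold change of -0.36 (SE 0.0503). By absolute log2 fold change, 37.5% of tested genes had a larger difference.

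CEBPA, encoding the factor that TRIB1 and TRIB2 are known to hand to COP1, was barely expressed. Its reads numbered 12, 9 and 17 in shE6AP and 32, 28 and 35 in wobble, which is 0.421, 0.422 and 0.709 CPM against 1.06, 0.969 and 1.29 CPM. The shE6AP libraries were all below the wobble libraries, but the third shE6AP library stood apart from the other two. The means were 0.517 ± 0.166 CPM and 1.11 ± 0.167 CPM (SD, n = 3 each), and the log2 fold change of -1.09 had the widest error of the members (SE 0.266). Leaving out single libraries moved it between -1.38 and -0.94. GENCODE v29 places 2 antisense genes over CEBPA exons, and the library kit does not mark strand, so some of these few reads could belong to them.

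RFWD2 did not separate the groups. Its level was 46.4, 45.1 and 47.1 CPM in shE6AP libraries 1 to 3 and 46.1, 46.0 and 47.3 CPM in wobble libraries 1 to 3, so the ranges overlapped. The log2 fold change was -0.01 (SE 0.0419), and its sign depended on the scaling, with 0.02 under upper-quartile scaling. Of all tested genes, 98.5% had a larger absolute difference. Across the set, 4 of the 5 members had groups without overlap; so did 62.6% of all tested genes, and since earlier results of this contrast chose the set nothing is read from that count. STK40, the closest relative of the Tribbles family and also a described COP1 partner, was at 37.8 ± 1.03 CPM in shE6AP and 36.4 ± 1.40 CPM in wobble (SD, n = 3 each; log2 fold change 0.05, SE 0.046). STK40 did not pass the test (Benjamini-Hochberg adjusted p = 0.356, edgeR's quasi-likelihood test).

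**Figure D1:**
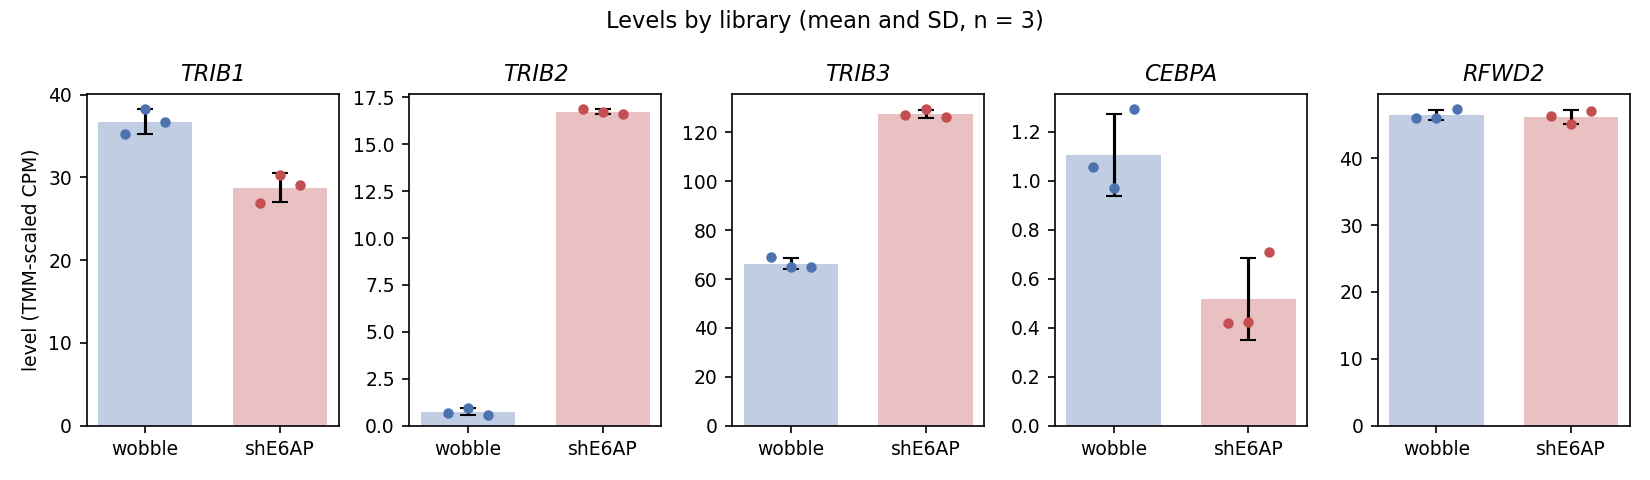
Level in TMM-scaled CPM (vertical axes, each from 0 with its own scale) of the 5 genes in wobble and shE6AP; each point is 1 library, the bar its group's mean and the whisker the SD. TRIB2 goes from 0.739 to 16.7 CPM and TRIB3 from 66.3 to 128 CPM, TRIB1 and CEBPA are lower in shE6AP, and RFWD2 overlaps.

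The Tribbles transcripts share only short identical stretches. The longest identical stretch between any GENCODE v29 transcripts of TRIB1 and TRIB2 was 20 bases, between TRIB1 and TRIB3 15 bases and between TRIB2 and TRIB3 13 bases. Shared stretches with STK40 reached 16 bases. In the same annotation no gene on either strand overlapped an exon of TRIB1, TRIB2 or TRIB3.

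Levels of different genes were set side by side only per kilobase of exon (the union of GENCODE v29 exons, on GRCh38, while the counts were made on hg19). In wobble the order was TRIB3 at 19.3 ± 0.632, RFWD2 at 10.6 ± 0.166, TRIB1 at 8.87 ± 0.363, CEBPA at 0.420 ± 0.0634 and TRIB2 at 0.161 ± 0.0385 CPM per kb (SD, n = 3). None of these neighbours in the order came within their SDs of each other. In shE6AP the order was TRIB3 at 37.2 ± 0.464, RFWD2 at 10.5 ± 0.233, TRIB1 at 6.95 ± 0.428, TRIB2 at 3.65 ± 0.0249 and CEBPA at 0.197 ± 0.0632 CPM per kb (SD, n = 3), so TRIB2 and CEBPA had changed places. STK40, at 6.76 ± 0.184 CPM per kb in shE6AP, did not differ from TRIB1 beyond their spread. In wobble STK40 was at 6.51 ± 0.251 CPM per kb (SD, n = 3), below TRIB1 by more than their spread.

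The 3 Tribbles transcripts summed to 47.8 ± 0.792 CPM per kb in shE6AP and 28.4 ± 0.385 CPM per kb in wobble (SD, n = 3). TRIB3 made up 77.8 ± 0.555% of that sum in shE6AP and 68.1 ± 1.56% in wobble. The share of TRIB1 was 14.5 ± 0.696% in shE6AP and 31.3 ± 1.49% in wobble, and that of TRIB2 was 7.64 ± 0.152% and 0.568 ± 0.133%. The pair best described for degrading C/EBPalpha, TRIB1 and TRIB2, thus shifted from nearly all TRIB1 to a mixture in which TRIB1 was still the more abundant.

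**Figure D2:**
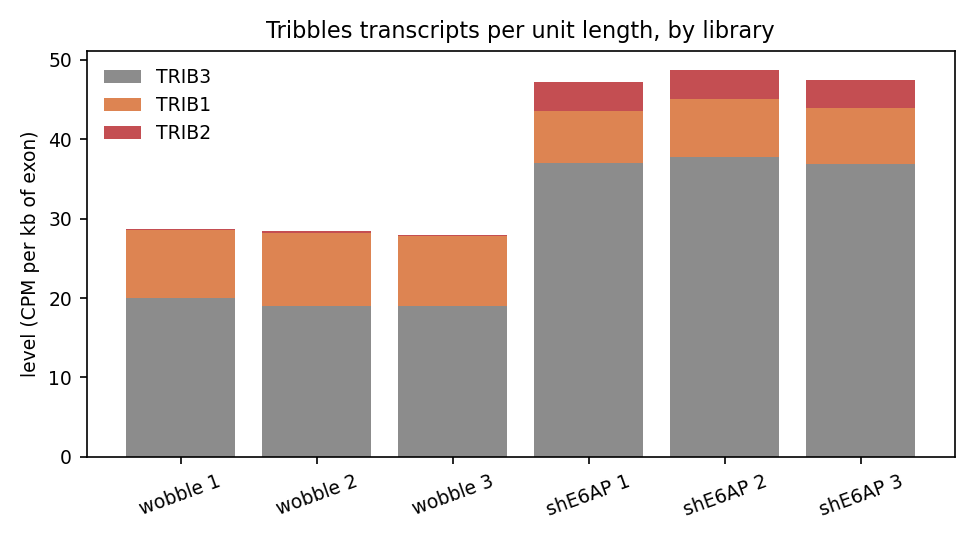
Stacked levels of TRIB3, TRIB1 and TRIB2 in CPM per kb of exon (vertical axis) for each of the 6 libraries (horizontal axis). The sum goes from 28.4 in wobble to 47.8 CPM per kb in shE6AP, and the TRIB2 segment is visible only in the shE6AP libraries.

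Transcripts of E2F1, ATF4 and C/EBP factors, described as acting on TRIB2 or TRIB3, were measured in the same libraries. The windows around the start sites of these 2 Tribbles genes, both higher in shE6AP, are therefore shown. Both come from RefSeq on GRCh38.p14, run from 250 bases before to 50 bases after the start site on the plus strand, and are written 5′ to 3′ with motif matches in capitals.
TRIB2, chr2:12716686-12716985: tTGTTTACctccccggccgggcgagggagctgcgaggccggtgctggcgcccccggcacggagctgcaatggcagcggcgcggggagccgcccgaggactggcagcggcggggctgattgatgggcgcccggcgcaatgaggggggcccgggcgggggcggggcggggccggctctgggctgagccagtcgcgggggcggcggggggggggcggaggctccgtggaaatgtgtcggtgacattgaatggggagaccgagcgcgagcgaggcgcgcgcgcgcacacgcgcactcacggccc
TRIB3, chr20:381045-381344: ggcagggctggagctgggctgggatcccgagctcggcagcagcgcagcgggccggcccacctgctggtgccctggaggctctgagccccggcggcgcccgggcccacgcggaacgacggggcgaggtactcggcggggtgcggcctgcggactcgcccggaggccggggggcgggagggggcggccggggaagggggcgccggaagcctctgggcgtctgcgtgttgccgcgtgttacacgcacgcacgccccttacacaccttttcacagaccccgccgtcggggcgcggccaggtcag
Searched on both strands were TGATGNAA (ATF4 with C/EBP), TTGCNNAA (C/EBP), TTTNGCGC (E2F) and, added after the window had been read, TGTTTAC (FOXO). The only match was TGTTTAC in the TRIB2 window, at position -249 from the start site. No FOXO factor was among the listed regulators of TRIB2. Among all 35116 windows, 3.42% held the FOXO letters, 3.62% the ATF4 letters, 10.5% the C/EBP letters and 1.79% the E2F letters. Both windows were rich in G and C, 77.3% for TRIB2 and 77.0% for TRIB3, with 42 and 38 CG pairs, against medians of 58.7% and 14 over all windows. RefSeq lists 3 overlapping windows for TRIB3; the first is shown and none of the 3 held a match.

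Tests below come from edgeR's quasi-likelihood fit over the whole table, with p-values adjusted by Benjamini and Hochberg over 19433 genes and a threshold of 0.05. At this threshold 59.0% of all tested genes were called, 28.6% higher and 30.4% lower in shE6AP, so single calls were common. The median log2 fold change over all tested genes was 0.01. All values are of RNA, and the level or activity of the encoded proteins was not measured in these libraries.

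Among transcription factors and pathways described as acting on TRIB2, 3 of 7 tested genes rose, 2 fell and 2 did not pass, with a median log2 fold change of 0.08. E2F1, the G1 to S factor, rose from 54.8, 50.6 and 48.1 CPM in the wobble libraries to 118, 116 and 119 CPM in the shE6AP libraries (log2 fold change 1.20, SE 0.0403, adjusted p = 1.41e-27 in edgeR). PITX1, a homeodomain factor described upstream of TRIB2 in leukaemia, rose from 44.3 ± 1.27 to 81.6 ± 0.854 CPM (SD, n = 3 each). NOTCH1, the receptor whose signalling has been linked to TRIB2 in T cells, rose by 0.52 on the log2 scale. CTNNB1, beta-catenin of the Wnt pathway, fell by 0.58, and MEIS1, a HOX cofactor, fell by 0.49 on the log2 scale from a level of 3.17 ± 0.203 CPM.

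TRIB2 and AKT are known to hold down FOXO factors, of which only the transcripts were measured here. Of 15 tested genes of the AKT pathway with the FOXO factors, 1 rose, 8 fell and 6 did not pass, with a median log2 fold change of -0.10. The number that fell was 5 without shE6AP library 1, without shE6AP library 3 or under upper-quartile scaling. PIK3CA, a catalytic PI3-kinase subunit, fell from 100.1 ± 7.39 to 56.5 ± 2.11 CPM (SD, n = 3 each), and AKT1 fell by 0.46 on the log2 scale. PHLPP2, a phosphatase that acts on AKT, rose by 0.43. FOXO3 showed a log2 fold change of -0.03 (adjusted p = 0.646 in edgeR). FOXO1 showed -0.12 at an adjusted p of 0.0496 in edgeR, a call that ended without any single library except wobble 1, up to an adjusted p of 0.165 without wobble 2. FOXO4 showed -0.14 (adjusted p = 0.0266 in edgeR), a call that ended without shE6AP library 1 (0.0712), shE6AP library 3 (0.163) or wobble library 1 (0.062). All 3 FOXO factors were named here after their values had been seen.

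Of 18 FOXO targets, 6 rose, 8 fell and 4 did not pass, with a median log2 fold change of -0.04. PMAIP1, the BH3-only protein NOXA, rose from 31.3 ± 2.44 to 63.0 ± 2.18 CPM, and SESN3, a stress-responsive sestrin, from 58.2 ± 1.28 to 86.9 ± 3.73 CPM (SD, n = 3 each). CDKN1A, the CDK inhibitor p21, fell from 82.1 ± 4.39 to 50.5 ± 1.47 CPM. BCL6, a transcriptional repressor, fell by 0.80 and FBXO32, the ubiquitin ligase subunit atrogin-1, by 1.08 on the log2 scale.

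Most of the listed genes that join COP1, the product of RFWD2, to a cullin ligase were lower in shE6AP. Of the 6 CRL4 genes that join COP1 to a cullin ligase, 4 fell, 1 rose and 1 (DET1) did not pass, with a median log2 fold change of -0.54; under upper-quartile scaling 4 fell and 2 rose. CUL4B, a cullin scaffold, stood at 62.9, 62.0 and 63.7 CPM in the shE6AP libraries and at 115, 118 and 127 CPM in the wobble libraries. Every shE6AP library was thus below every wobble library for this scaffold, with a log2 fold change of -0.93 (SE 0.0393, adjusted p = 5.08e-24 in edgeR). CUL4A fell by 0.66, the adaptor DDB1 from 344 ± 9.14 to 229 ± 3.15 CPM (SD, n = 3 each), and the RING subunit RBX1 by 0.50 on the log2 scale. DDA1, a small DDB1-associated protein, rose by 0.14. The COP9 signalosome, which strips NEDD8 from cullins, had 2 of 9 genes higher, 2 lower and 5 not passing, with a median of 0.06. The number higher was 4 under upper-quartile scaling, and 1 with DESeq2, with no low-count filter, and without shE6AP library 2, wobble library 2 or wobble library 3. Its catalytic subunit COPS5 fell by 0.22 and COPS7B rose by 0.19 on the log2 scale.

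Transcripts encoding described substrates of COP1 or of Tribbles complexes changed in both directions: 7 of 13 rose, 4 fell and 2 did not pass, with a median log2 fold change of 0.14. Without shE6AP library 2 the number that fell was 2. ETV4, an ETS factor of the PEA3 group, was at 15.4, 15.3 and 14.7 CPM in wobble and at 36.3, 33.4 and 36.0 CPM in shE6AP (log2 fold change 1.22, SE 0.0547). ETV1, the PEA3 member known from prostate cancer fusions, had 0 reads in all 3 wobble libraries and 52, 38 and 41 reads in the shE6AP libraries. Against a floor of 3 reads over the wobble group its level was at least 50.9-fold higher, a bound for counting error only. The third PEA3 gene, ETV5, moved the other way, with a log2 fold change of -0.11 (adjusted p = 0.00884 in edgeR), a call that ended without shE6AP library 2 (0.0657). ETS1 rose by 0.57, while ETS2 fell by 0.67 on the log2 scale. With ETV1 at its bound the median stayed at 0.14.

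Of the list of other C/EBP genes and partners, 5 were tested, of which 4 rose and 1 fell, with log2 fold changes from -0.12 to 0.30. CEBPB stood at 115 ± 7.77 CPM in shE6AP and 101 ± 0.561 CPM in wobble, and CEBPG at 125 ± 1.49 and 111 ± 2.44 CPM (SD, n = 3 each). CEBPZ, which is in the list by name only and is not a family member, rose by 0.30. The largest rise among the other tested genes of the list was 0.19, for CEBPB. CEBPD showed -0.12, a call that ended without shE6AP library 1 (adjusted p = 0.2 in edgeR). DDIT3, which encodes CHOP, showed 0.18, a call that ended without wobble library 1 (adjusted p = 0.0753 in edgeR). Of 7 tested C/EBPalpha targets of myeloid cells, fat and liver, 2 rose, 2 fell and 3 did not pass, with a median of -0.08. PPARG, the adipogenic nuclear receptor, fell from 57.5 ± 1.47 to 40.3 ± 1.16 CPM (SD, n = 3 each), and IL6R, the interleukin-6 receptor chain, rose by 0.36. CSF1R, also a blood marker above, rose by 0.73 from only 1.21 ± 0.533 CPM. GFI1, a myeloid repressor at 0.259 CPM in shE6AP and 0.545 CPM in wobble, fell by 1.00, a call that ended with DESeq2 (adjusted p = 0.0951) and without shE6AP library 2 (0.103 in edgeR) or 3 (0.0523 in edgeR).

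In the MAP kinase cascade, whose MAP2K step Tribbles proteins bind, 4 of 12 genes rose, 4 fell and 4 did not pass, with a median log2 fold change of -0.03. MAP2K2, the kinase MEK2, fell from 213 ± 3.17 to 146 ± 1.80 CPM (SD, n = 3 each). MAP2K4, a JNK and p38 activator, fell by 0.71. MAP2K1, the kinase MEK1 that is best known as a Tribbles partner and was named for that after its values were seen, showed 0.02 (adjusted p = 0.666 in edgeR). ARAF rose by 0.28, MAPK8 by 0.19 and MAPK9 by 0.17 on the log2 scale.

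Genes that ERK signalling induces were higher more often than lower, with 9 of 14 higher, 1 lower and 4 not passing, and a median log2 fold change of 0.34. PHLDA1 rose from 186 ± 2.97 to 473 ± 18.3 CPM, and IER3, an immediate early gene, from 142 ± 6.63 to 259 ± 19.1 CPM (SD, n = 3 each). DUSP4, a phosphatase of ERK, rose from 1.38 ± 0.185 to 4.94 ± 0.352 CPM, and SPRED1, an inhibitor of RAS signalling, fell by 0.29 on the log2 scale.

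TRIB3 belongs to the integrated stress response, in which eIF2alpha kinases raise ATF4 and then CHOP. Of 31 tested genes in the list of ATF4, CHOP and their targets other than TRIB3, 17 rose, 8 fell and 6 did not pass, with a median log2 fold change of 0.13 and a range from -0.87 to 0.63, against 0.94 for TRIB3. FGF21, the other listed target, was not tested, at 0.376 CPM in shE6AP and 0.118 CPM in wobble. ATF4 itself rose by 0.17. SLC7A5 and SLC7A11, amino acid transporters, rose from 392 ± 4.76 to 575 ± 2.38 CPM and from 131 ± 9.54 to 197 ± 3.43 CPM (SD, n = 3 each), and PSAT1, an enzyme of serine synthesis, by 0.52 on the log2 scale. ALDH1L2, a mitochondrial folate enzyme, fell by 0.87, DDIT4, an inhibitor of mTORC1, by 0.76 and WARS, the tryptophanyl-tRNA synthetase, by 0.75. Upstream, 11 listed genes encode eIF2alpha, its kinases, its phosphatase or their regulators. Of these, 2 rose, 7 fell and 2 did not pass, with a median of -0.22. PPP1CB, a catalytic subunit of protein phosphatase 1, fell from 226 ± 8.04 to 87.6 ± 3.38 CPM (SD, n = 3 each), and the heme-regulated kinase gene EIF2AK1 by 0.52. PPP1R15B, the constitutive eIF2alpha phosphatase subunit, rose by 0.41 and EIF2S1, the eIF2alpha gene itself, by 0.30.

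**Figure D3:**
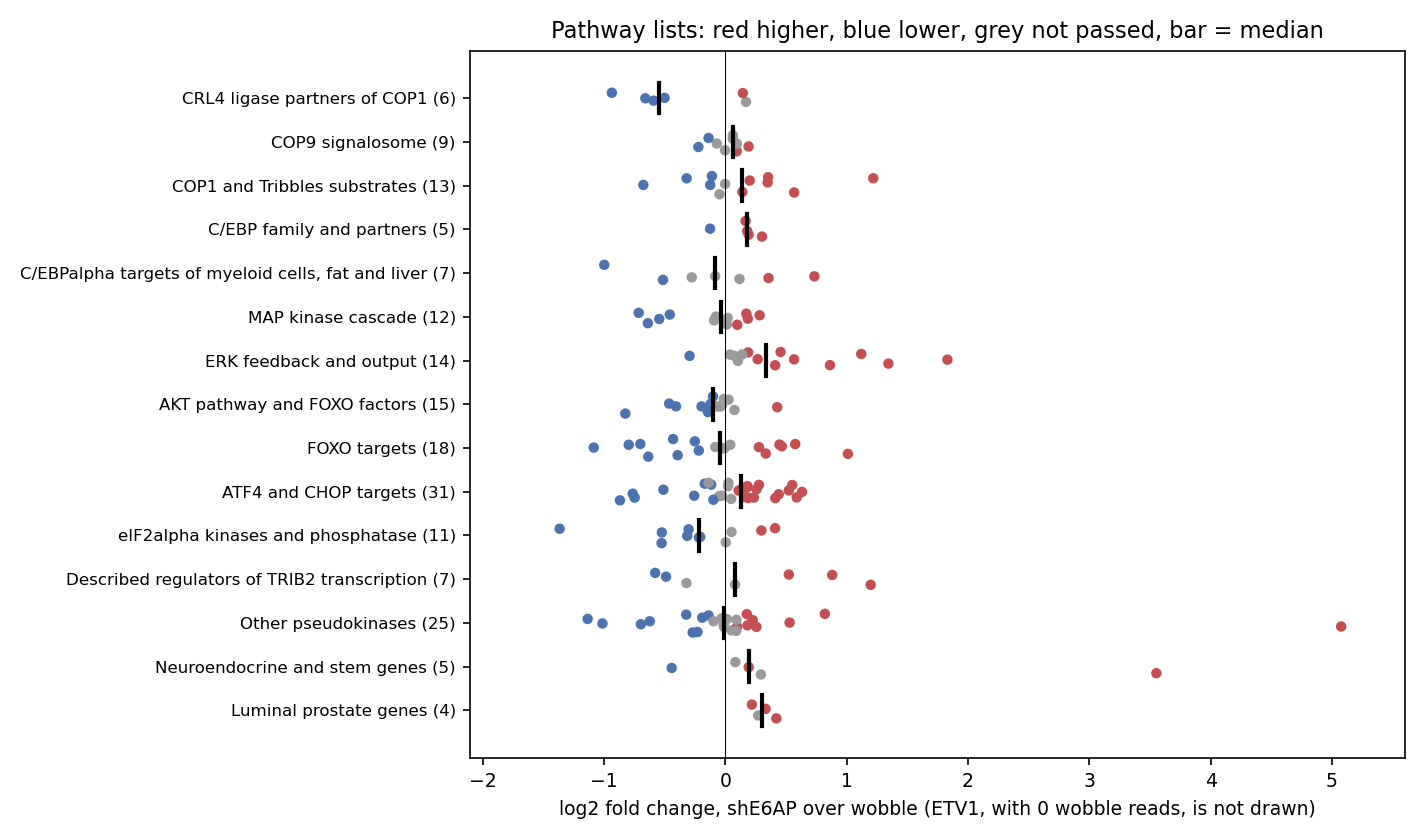
Change between shE6AP and wobble on the log2 scale (horizontal axis, above 0 is higher in shE6AP) of each tested gene of the 15 lists (vertical axis, number tested in brackets); red points rose, blue fell, grey did not pass, and black bars are list medians, from -0.54 for the CRL4 ligase genes to 0.34 for ERK output. ETV1 is not drawn, as it has no wobble reads.

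Among 25 other pseudokinases, 8 rose, 9 fell and 8 did not pass, with a median log2 fold change of -0.01. The number that rose was 4 without shE6AP library 2, and 5 without wobble library 1 or with no low-count filter. EPHB6, an ephrin receptor without kinase activity, had 162, 75 and 122 reads in shE6AP against 5, 4 and 3 in wobble (log2 fold change 5.08, SE 0.264). The second shE6AP library was the lowest of its group for EPHB6, and all 3 were above the wobble libraries. PTK7 rose by 0.82 and STRADB, a partner of LKB1, by 0.53, while PXK fell by 1.13 and ILK, the integrin-linked kinase, by 0.70 on the log2 scale.

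Among prostate lineage genes few passed the low-count filter. Of 5 tested neuroendocrine and stem genes, 2 rose, 1 fell and 2 did not pass, with a median of 0.19. NCAM1, a neural adhesion molecule, had 29, 36 and 29 reads in shE6AP and 4, 3 and 2 in wobble (log2 fold change 3.55, SE 0.368). ENO2 rose by 0.19 and SYP, synaptophysin, fell by 0.44. Of 4 tested luminal genes 3 rose, among them KRT8 by 0.22 and KRT18 by 0.33, and 1 did not pass, with a median of 0.30.

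The genes next to each member were taken from the RefSeq gene order, 4 tested genes on each side. Of the 40 neighbours, 12 rose, 15 fell and 13 did not pass. Around TRIB2, 2 of 8 rose, 4 fell and 2 did not pass. LPIN1, a phosphatidate phosphatase and the nearest tested gene on one side, fell from 139 ± 1.25 to 79.8 ± 1.81 CPM (SD, n = 3 each), and NBAS, the nearest on the other, did not pass. ROCK2, GREB1 and DDX1 also fell, and E2F6 rose by 0.25 on the log2 scale. FAM49A was the third tested gene on the NBAS side. It had 30, 18 and 34 reads in shE6AP and 2, 2 and 1 in wobble (log2 fold change 4.15, SE 0.426). Of the tested genes, NBAS, which did not pass, and DDX1, which fell, lie between TRIB2 and FAM49A.

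Around TRIB3, 4 of 8 neighbours rose, 3 fell and 1 did not pass. RBCK1, a subunit of the linear ubiquitin ligase complex, was the nearest tested gene on one side. It rose from 113 ± 2.60 to 192 ± 4.91 CPM (SD, n = 3 each), and TBC1D20 beyond it by 0.31. NRSN2, the nearest tested gene on the other side, fell by 0.47. Around TRIB1, 2 rose, 3 fell and 3 did not pass. The 3 that fell, NSMCE2, KIAA0196 and SQLE, are the nearest 3 tested genes on one side. Their log2 fold changes were -0.20, -0.47 and -0.37, against -0.36 for TRIB1. The fourth on that side did not pass, at -0.04. On the other side the nearest tested gene did not pass, at 0.07. The 2 that rose are the second and the third tested gene there, by 0.18 and 0.41 on the log2 scale. Of all tested genes, 30.4% were called lower. Around CEBPA, 2 rose, 2 fell and 4 did not pass. SLC7A10 was the nearest tested gene on one side. It had 4, 4 and 2 reads in shE6AP and 18, 16 and 23 in wobble (log2 fold change -2.25, SE 0.407). CEBPG, the nearest tested gene on the other side, rose by 0.17. Around RFWD2, 2 rose, 3 fell and 3 did not pass, with KIAA0040 rising from 1.42 ± 0.153 to 16.8 ± 1.23 CPM and CACYBP, a SIAH1 partner, falling from 81.7 ± 2.34 to 33.7 ± 1.20 CPM (SD, n = 3 each).

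**Figure D4:**
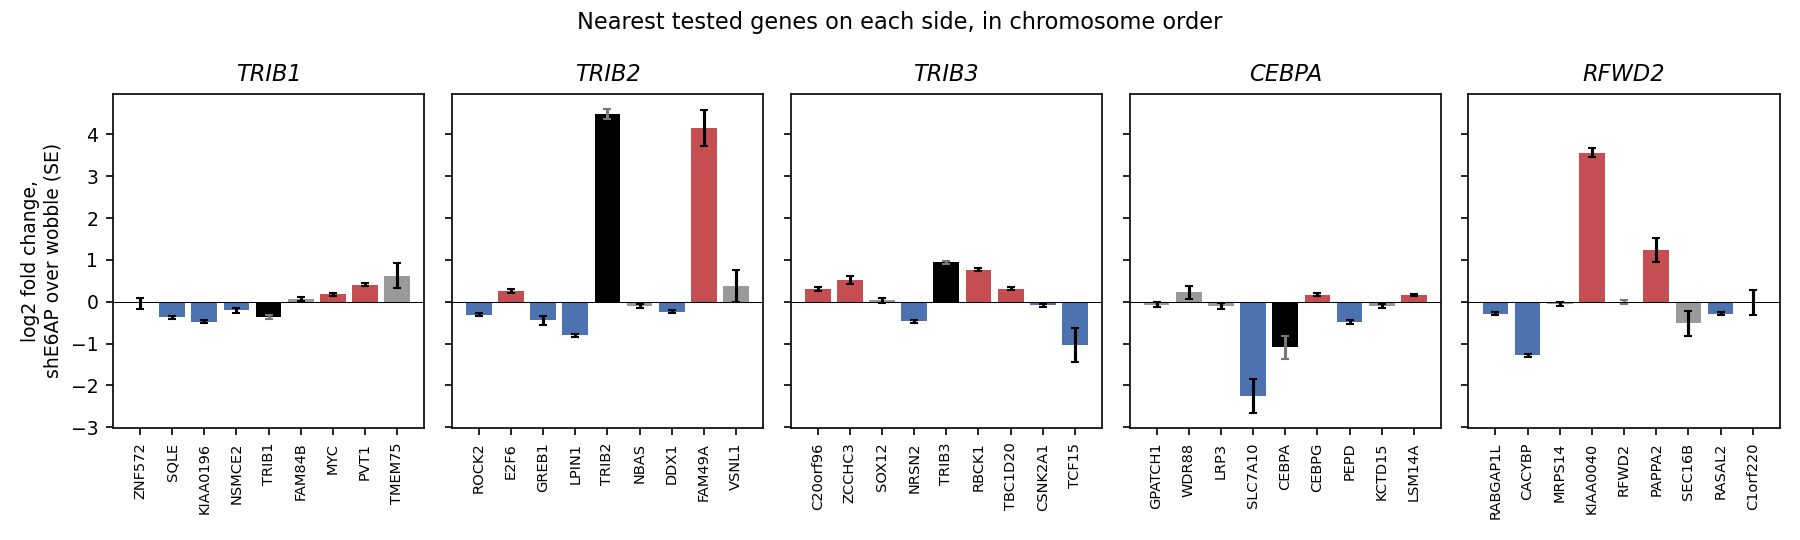
Log2 fold change of shE6AP over wobble with its SE (vertical axis) for each member (black) and its 4 nearest tested genes on each side in chromosome order (horizontal axis, not to distance); red rose, blue fell, grey did not pass. Of the genes around TRIB2 (4.49), only FAM49A at 4.15 and E2F6 at 0.25 passed as higher. TRIB3 stands between NRSN2 at -0.47 and RBCK1 at 0.76.

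The genes whose profile over the 6 libraries was most like that of TRIB2 were FAM110C, MAL2, KCTD12, S1PR3 and SAMD9, among 12383 genes compared with a mean of at least 5 CPM. Likeness was the root mean square difference between log2 CPM profiles, each centred on its own mean, and it ran from 0.30 for FAM110C to 0.39 for SAMD9. All 5 had libraries of 0.450 to 2.88 CPM in wobble and 12.3 to 44.1 CPM in shE6AP. S1PR3, a sphingosine 1-phosphate receptor, was at 0.959 ± 0.247 CPM in wobble and 15.3 ± 0.576 CPM in shE6AP (SD, n = 3 each). The 6 libraries form 2 groups, so genes with a similar step between the groups are alike by this measure.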

How the data were processed

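Per the submitters' processing notes, reads were aligned to hg19 with Bowtie2 and TopHat2 2.0.13 and counted with HTSeq. Which annotation was counted, and whether by strand, is not given in the sources used here. The authors deposited 1 table of raw read counts per gene, not normalized, with 1 column for each of the 6 libraries. Of 33839 rows, 33835 genes were used; 2 summary rows, 1 unnamed row (at most 12 reads in a library) and 1 row without values were left out.

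The counts were fitted in edgeR 4.0.16 under R 4.3.3 after filterByExpr (19433 genes tested, all 5 members among them), TMM scaling and the quasi-likelihood test with group as the only term, with Benjamini-Hochberg adjustment and a threshold of 0.05. The standard error is the log2 fold change over the square root of F. The coefficient of variation between libraries from edgeR's common dispersion was 2.77%. It is pooled over all tested genes and leaves out counting error, so single genes can vary more. The members and lists were chosen with earlier results of these data known. The rule for named genes took the members, UBE3A, STK40, E2F1, the markers, up to 3 called genes of each list in each direction by smallest p (any gene of a list of at most 9), called neighbours, and the 5 profiles nearest TRIB2. FOXO1, FOXO3, FOXO4, MAP2K1, ATF4, FGF21 and NBAS fall outside it and were named after their values were seen. Some genes that the rule took are not reported here. The code of the fit was also run on counts simulated from its own means and dispersions, which does not test whether the fit suits these data. Names came from the table, neighbours from RefSeq on GRCh38.p14 and exon lengths from GENCODE v29, so no coordinates of counted genes are given. Promoter windows were available for the 4 members other than TRIB1, whose window is not used here; protein sequences are not used here. Alternatives were other scalings and filters, a replicate block, an assumed spread, each library left out, and DESeq2 1.42.0 and limma 3.58.1.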

Additional observations from a re-analysis of the deposited data

How the results depend on the processing

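The log2 fold changes of TRIB1, TRIB2, TRIB3 and CEBPA kept their direction under each scaling, DESeq2, limma-voom, the replicate block and no low-count filter; the filter of 1 CPM in 3 libraries kept the direction of the Tribbles genes and removed CEBPA. Leaving out each library in turn gave -0.40 to -0.31 for TRIB1, 4.36 to 4.68 for TRIB2, 0.92 to 0.97 for TRIB3, -1.38 to -0.94 for CEBPA and -0.02 to 0.00 for RFWD2, and upper-quartile scaling gave 0.0212 for RFWD2. The median over all tested genes shifted by at most 0.0283 with the scaling. An assumed coefficient of variation of 0.1 between libraries, in a likelihood ratio test, left 3110 genes higher and 3633 lower in shE6AP. This test called 0 genes of the COP9 signalosome, 7 of the COP1 and Tribbles substrates and 1 of the list of C/EBP genes and partners. Of the MAP kinase cascade and of the AKT pathway with FOXO factors it called 4 each. Of the ATF4 and CHOP targets it called 10, and of the other pseudokinases 8. The construction of this test, a wider assumed spread, sets these counts. Of the genes named, ETV5, CEBPB, CEBPD, CEBPG, DDIT3, ARAF, MAPK8, MAPK9, ATF4, DDA1, COPS5, COPS7B, ENO2, KRT8, E2F6, DDX1, NSMCE2, CDH1, KRT19, FOXO4 and FOXO1 lost their call there. FOXO1 lost it also with RLE, upper-quartile and library-total scaling, the filter of 1 CPM in 3 libraries, DESeq2 and limma-voom, FOXO4 with upper-quartile scaling and DESeq2, and CDH1 with DESeq2; the cause was not tested. With the replicate number as a block 5849 genes were higher and 6130 lower, and no list count moved by over 1.5 times. The numbers share only a label. Deviations of same-numbered libraries correlated at 0.0438, 0.0166 and 0.0372, each above the correlations with other numbers. The deviations were centred within each group, which ties these correlations to each other, so nothing about pairing is read from them. Without length correction TRIB3 stood 1.81 times above TRIB1 in wobble, against 2.18 per kb. A prior count of 0.5 kept the same 5 genes nearest TRIB2. With 9 to 35 reads a library, CEBPA is the member whose depth limits it most.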
